A study of Mus musculus with 38 samples.

Results

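The Gimap genes encode the GTPases of the immunity-associated proteins, a family of small GTP-binding proteins made mainly in lymphocytes. The family is known for its part in the survival of T cells: loss of Gimap5 shortens the life of mature lymphocytes, Gimap1 is needed for the upkeep of peripheral T and B cells, and Gimap4 acts in the timing of T cell death. The members examined were the 8 genes Gimap8, Gimap9, Gimap4, Gimap6, Gimap7, Gimap1, Gimap5 and Gimap3, chosen by name out of 22350 protein-coding genes on chromosomes 1 to 19 and X in GENCODE vM1. All 8 lie side by side on mouse chromosome 6, at chr6:48597233-48716518 of the mm9 build, a span of 119.3 kb. Peaks were read in a window that added 200 kb on each side, chr6:48397233-48916518, a length of 519.3 kb that held 21 protein-coding genes.

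The study mapped SATB1, a nuclear protein abundant in thymocytes, and CTCF, a zinc finger protein of chromatin boundaries. SATB1 is known for binding base unpairing regions (BURs), AT-rich stretches in which the strands separate readily under supercoiling and in which 1 strand carries runs without G. The study's 11 peak lists were used. The urea method, which spins crosslinked chromatin through 8 M urea to strip off protein that is not tied to DNA before the ChIP, gave SATB1 lists for thymocytes, for a cell suspension of brain cortex and for primary epidermal keratinocytes of skin, with 2 libraries each, and CTCF lists for thymocytes and for skin, with 1 list each. Standard ChIP-seq of soluble sheared chromatin gave 2 SATB1 lists for thymocytes. The BUR reference map was a list of sonicated pure thymocyte DNA bound by recombinant SATB1 in vitro. By the labels all ChIP libraries came from wild-type C57BL/6 mice, and the map from DNA of the same strain. The sample labels gave an age of P13 for thymocytes and skin and of 5 and 6 weeks for the brain libraries, whereas the protocols gave P13 for thymocytes and brain and P5 for skin, and the titles of the thymocyte CTCF library and of standard library 1 named 6 weeks. The study's methods gave yet other ages for brain and skin. With the sources at odds, the part of age in any difference between tissues was not tested. The urea SATB1 libraries used the homemade antibody 1583D throughout. The 2 libraries of each urea SATB1 group carried the same preparation code in their titles and differed there by 10 and 12 cycles in brain (of what is not said), by 55 and 60 s in skin and by 4 and 2 µl of antibody in thymocytes. The brain libraries also differed in labelled age. The study calls its replicates cells of different animals, and the labels name no animal for each library, so part of the spread may be technical. Standard library 1 used antibody ab109122 and 15 s of sonication and standard library 2 used 1583D and 150 s, and these cannot be told apart from replicate error. Peak lists hold no marker gene expression, so the labelled cell types could not be checked here. The lists hold no read counts. The study describes the aligned reads of the urea libraries as similar between the cell types, and numbers for each library were not used here. Because reads of unique position were kept and the Gimap genes are paralogs, a peak in a near-identical stretch could have been missed.

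Within the window, all 5 and 4 urea SATB1 peaks of thymocytes sat on a BUR, against 75.8% and 77.6% of the whole lists. None of the 31 and 13 standard SATB1 peaks of the same cell type did, against 3.78% and 5.20%. Standard peaks covered starts of 6 of the 8 Gimap genes. A standard peak within 1 kb of a start, a rule added after the data were seen, was found for 53.6% and 41.4% of all protein-coding genes. The sequences below are the 4 BURs under a thymocyte urea SATB1 peak in both libraries, followed by the BUR within the span of the genes that carried no peak in any of the 10 other lists. BURs are numbered 1 to 14 along the window. Each is given from the forward strand of the mm9 genome as the 300 bases around its in vitro summit, and capitals mark the longest stretch in it that lacks G or lacks C on that strand. The part of BUR 9, in an intron of Gimap1, is chr6:48680438-48680737. That of BUR 10, upstream of the main Gimap1 start, is chr6:48688251-48688550. That of BUR 11, between Gimap5 and Gimap3, is chr6:48709774-48710073. That of BUR 14, beyond 1600015I10Rik, is chr6:48886445-48886744. That of the unbound BUR 7, in an intron of Gimap6, is chr6:48656696-48656995.
BUR 9: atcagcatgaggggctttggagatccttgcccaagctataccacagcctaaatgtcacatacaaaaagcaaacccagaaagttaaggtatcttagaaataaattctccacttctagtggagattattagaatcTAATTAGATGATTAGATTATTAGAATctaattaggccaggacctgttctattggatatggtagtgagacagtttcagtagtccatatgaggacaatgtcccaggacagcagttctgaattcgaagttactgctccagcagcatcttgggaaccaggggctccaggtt
BUR 10: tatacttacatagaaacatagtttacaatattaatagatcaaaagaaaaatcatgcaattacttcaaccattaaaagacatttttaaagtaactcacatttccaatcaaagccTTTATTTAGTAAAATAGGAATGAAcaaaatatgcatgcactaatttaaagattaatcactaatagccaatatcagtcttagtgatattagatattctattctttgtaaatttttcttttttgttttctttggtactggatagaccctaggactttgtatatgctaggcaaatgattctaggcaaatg
BUR 11: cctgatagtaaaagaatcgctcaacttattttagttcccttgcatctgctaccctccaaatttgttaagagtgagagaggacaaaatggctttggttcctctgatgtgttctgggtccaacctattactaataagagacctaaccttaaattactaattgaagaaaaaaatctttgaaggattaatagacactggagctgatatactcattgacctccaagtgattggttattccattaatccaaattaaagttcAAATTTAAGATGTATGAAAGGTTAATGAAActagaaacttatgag
BUR 14: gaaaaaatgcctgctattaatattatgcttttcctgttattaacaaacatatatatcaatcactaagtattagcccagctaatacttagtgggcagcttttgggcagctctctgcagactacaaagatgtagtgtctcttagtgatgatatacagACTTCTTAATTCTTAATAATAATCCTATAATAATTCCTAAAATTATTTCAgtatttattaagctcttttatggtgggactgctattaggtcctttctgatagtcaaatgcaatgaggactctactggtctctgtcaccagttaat
BUR 7: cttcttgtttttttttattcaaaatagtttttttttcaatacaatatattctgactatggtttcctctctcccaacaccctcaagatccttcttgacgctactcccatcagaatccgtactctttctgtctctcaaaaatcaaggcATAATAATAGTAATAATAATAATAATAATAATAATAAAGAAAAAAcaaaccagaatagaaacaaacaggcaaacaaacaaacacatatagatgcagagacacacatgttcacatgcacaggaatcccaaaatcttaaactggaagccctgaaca
The capitals covered 26 bases without C in BUR 9, 24 without C in BUR 10, 30 without C in BUR 11, 50 without G in BUR 14 and 45 without C in BUR 7. A stretch without C on the forward strand is a stretch without G on the other strand. The unbound BUR 7 thus had a longer stretch than 3 of the 4 bound BURs shown. This does not hold for the bound BURs not shown. Over their full length BUR 1, BUR 6, BUR 8 and BUR 12 had stretches of 62, 57, 208 and 54 bases. The other unbound BURs ranged from 41 bases in BUR 13 to 80 in BUR 3.

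For contrast, the strongest standard SATB1 peak of the window lay 1.81 kb beyond the urea peak on BUR 9, in the same intron of the long transcript Gimap1-004. Its 300 bases around the summit, chr6:48682927-48683226, held 50% A and T, against 58.7% in the printed part of BUR 9 and 73.3% in that of BUR 10, and its longest stretch without C was 18 bases.
Standard SATB1 peak: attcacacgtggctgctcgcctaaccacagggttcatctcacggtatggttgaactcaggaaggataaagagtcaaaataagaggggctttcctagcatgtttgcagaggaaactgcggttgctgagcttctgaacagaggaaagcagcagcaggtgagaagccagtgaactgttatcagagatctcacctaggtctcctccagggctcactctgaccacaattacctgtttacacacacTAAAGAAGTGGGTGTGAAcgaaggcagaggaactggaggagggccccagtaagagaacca

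**Figure D1:**
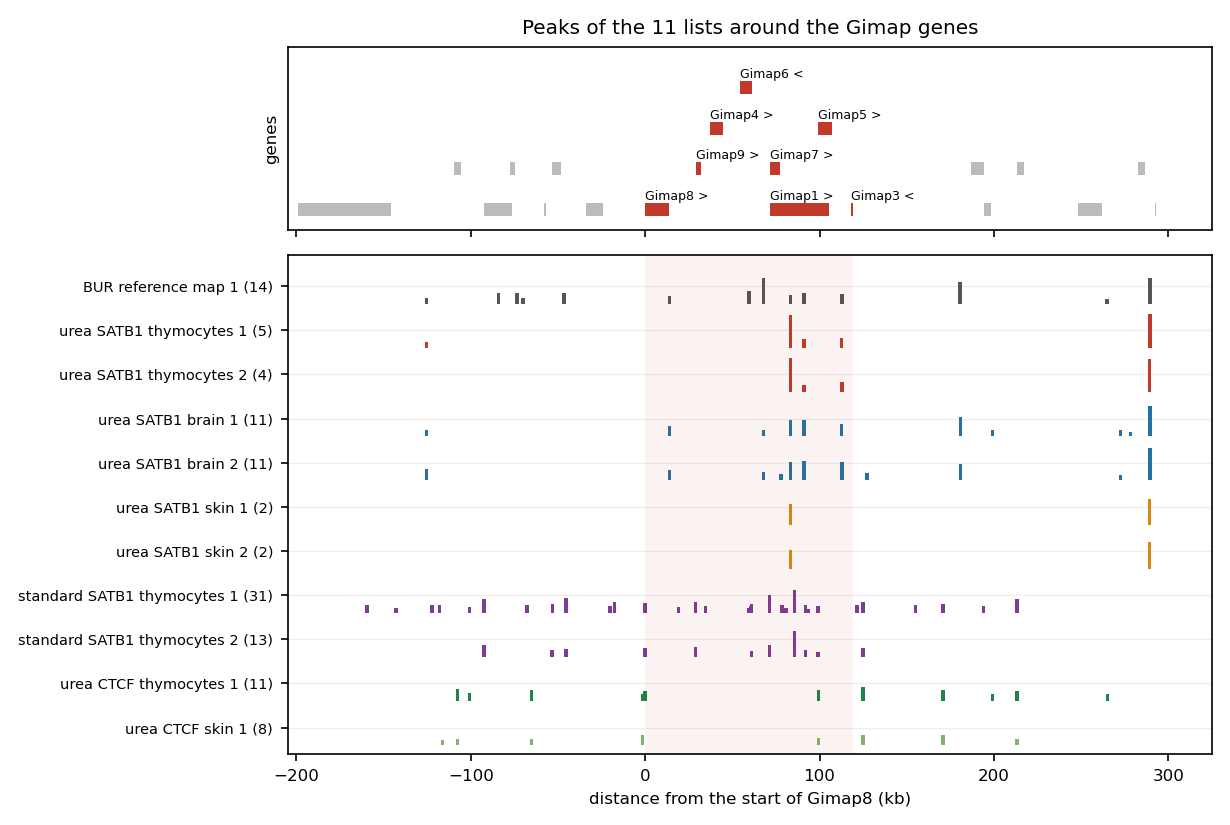
Peaks of the 11 lists along the Gimap window, plotted by distance in kb from the start of Gimap8. The upper panel shows protein-coding genes, with the 8 Gimap genes in red, the others in grey and arrowheads for the strand; in the lower panel each row is a list with its number of window peaks in parentheses, bar height is fold enrichment to 1 scale in all rows, bars are drawn 2 kb wide for visibility, and the shaded band spans the 8 genes. The urea SATB1 bars shared by thymocytes, brain and skin line up at BUR 9 and BUR 14 of the top row. No standard SATB1 peak overlaps a BUR, although bars drawn at this width can share a position with that of a BUR.

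To determine how urea SATB1 binding around the Gimap genes differed between tissues, peaks in the window were counted in each list. Thymocytes had 5 peaks in library 1 and 4 in library 2, brain had 11 in each library, and skin had 2 in each library. The counts did not overlap between tissues and followed the order skin, thymocytes, brain (Jonckheere-Terpstra trend, two-sided exact permutation over the 90 ways to arrange the 6 lists, p = 0.0222, the smallest that these lists allow). This order was chosen with earlier results of these data known. The 2 libraries of a tissue shared a preparation code, so the tests over these 6 lists may compare technical and not animal replicates. The lists themselves differed in size, from 10846 and 11210 peaks in skin through 38882 and 45049 in thymocytes to 109154 and 117963 in brain. Relative to list size the order turned round. The window held 1.78 and 1.84 peaks per 10000 peaks of the skin lists, 1.11 and 1.03 of the thymocyte lists, and 0.932 and 1.01 of the brain lists (exact two-sided permutation test, p = 0.0222). With every list reduced to its 10846 peaks of highest −log10 q, skin kept 2 peaks in each library, thymocytes 2 in each and brain 1 in each, and the order by tissue did not pass the test (exact permutation test, p = 0.133). The raw counts thus followed the order of the list sizes, and the counts per 10000 peaks ran in the reverse order. The part of list size in the differences between tissues was not tested.

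**Figure D2:**
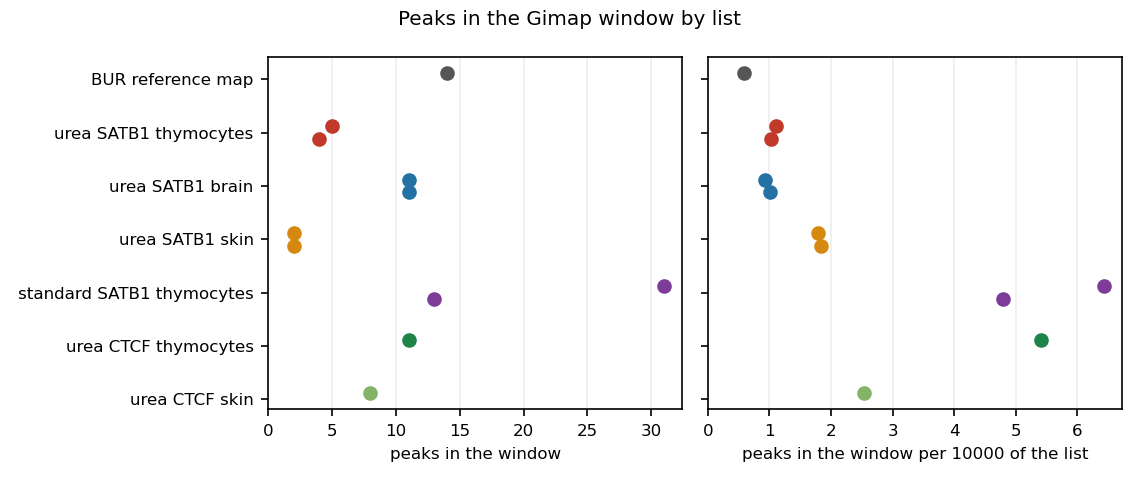
Number of peaks in the Gimap window (left, x axis) and the same per 10000 peaks of the list (right, x axis), with 1 point for each list and 2 points where a group has 2 libraries. Brain lies to the right of thymocytes and skin on the left, at 11 peaks against 5 and 4 and against 2, and skin lies to the right of both on the right.

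The window held 14 BURs, and 8 of them carried a urea SATB1 peak in some tissue. BUR 9 and BUR 14 were bound in both libraries of all 3 tissues. BUR 10 and BUR 11 were bound in both libraries of thymocytes and of brain and in neither of skin, and BUR 1 was bound in both brain libraries and in thymocyte library 1. BUR 6, BUR 8 and BUR 12 were bound in brain alone, in both libraries. Thymocyte peaks thus covered 5 and 4 of the 14 BURs (35.7% and 28.6%), brain peaks 8 in each library (57.1%), and skin peaks 2 in each library (14.3%), an order that reached the smallest p allowed (exact two-sided permutation test, p = 0.0222). With lists of equal size the share was 14.3% in every skin and thymocyte list and 7.14% in both brain lists (exact permutation test, p = 0.133). Over the whole map the shares of BURs bound were 14.3% and 12.6% in thymocytes, 36.2% and 33.4% in brain, and 3.68% and 3.61% in skin. In each list the window share was above that of the whole map, and since the window was 1 locus this was not tested.

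**Figure D3:**
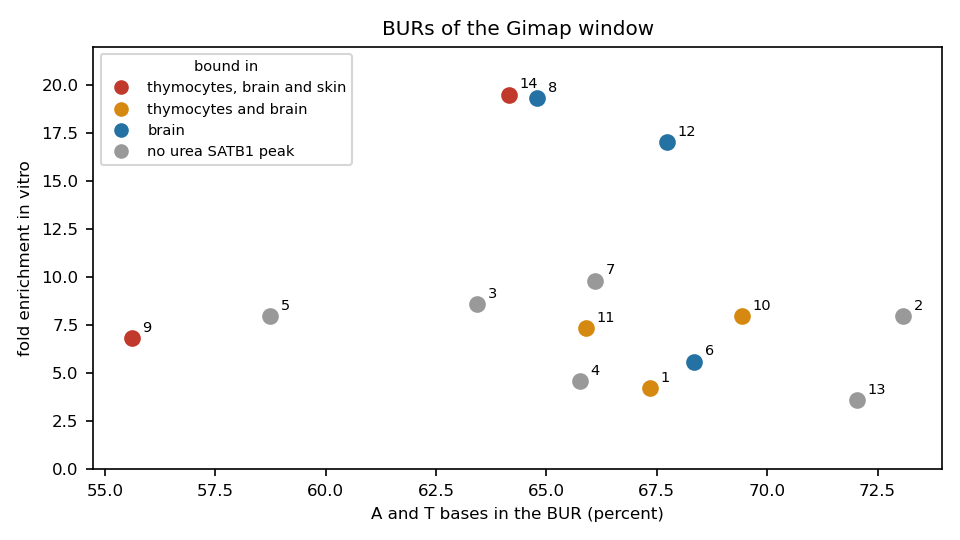
The 14 BURs of the window, numbered along the chromosome, by their share of A and T bases in percent (x axis) and their fold enrichment in vitro (y axis), with colours for the tissues in which a urea SATB1 peak lay on them in either library. BUR 9, bound in all 3 tissues, sits at the lowest share of A and T, 55.6%, whereas BUR 14, also bound in all 3, has the highest fold enrichment, 19.5.

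The 3 BURs of the window strongest in vitro, BUR 14 at 19.5, BUR 8 at 19.3 and BUR 12 at 17.0, were all bound in brain. Of these, BUR 8 and BUR 12 were bound in neither thymocytes nor skin. The other 5 BURs bound in any tissue lay within the in vitro range of the unbound. The 8 bound BURs had in vitro fold enrichments from 4.23 to 19.5 with a median of 7.65, and the 6 unbound BURs had values from 3.61 to 9.82 with a median of 7.96, against a median of 5.88 over the whole map. BUR 14 and BUR 8 were within the top 0.698% and 0.754% of the map. BUR 8, 3.28 kb upstream of the Gimap7 start, was bound in brain with fold enrichments of 4.60 and 6.41 and in neither thymocytes nor skin. It held a stretch of 208 bases without G, the longest among the 14, against 26 bases in BUR 9. BUR 9 itself was unremarkable in vitro, with a fold enrichment of 6.84 in the top 39.8% of the map. BUR 7, with the highest in vitro fold of the unbound set, 9.82, lay in an intron of Gimap6.

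In thymocytes the strongest urea SATB1 site within the span of the Gimap genes was BUR 9, in an intron of Gimap1-004, which starts beside Gimap7. In skin it was the single site there, and in brain BUR 10 was higher in both libraries. Its fold enrichment, the ratio at the summit over the caller's local background, was 25.1 and 26.4 in thymocytes (25.8 ± 0.932, SD, n = 2), 12.2 and 13.9 in brain (13.0 ± 1.25, SD, n = 2), and 15.8 and 14.0 in skin (14.9 ± 1.26, SD, n = 2). Whether that background came from the library itself or from an input is not known. Thymocytes lay above the other tissues without overlap, and brain and skin overlapped. Within its own list the peak ranked in the top 2.35% and 2.78% in thymocytes, the top 20.3% and 14.6% in brain, and the top 17.9% and 22.3% in skin. Fold enrichment was not scaled between libraries, so these values are given side by side with no test.

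At the neighbouring sites brain gave the higher values. On BUR 10, 574 bp upstream of the start of Gimap1-001 in thymocyte library 1, fold enrichment was 6.86 and 5.20 in thymocytes (6.03 ± 1.17, SD, n = 2) and 12.5 and 14.8 in brain (13.6 ± 1.64, SD, n = 2), and skin had no peak. This site also overlapped an exon of Gm3345, a transcript annotated on the opposite strand. On BUR 11, which is intergenic and 6.39 kb from the start of Gimap3 beyond that gene's end, it was 7.88 and 7.54 in thymocytes (7.71 ± 0.236, SD, n = 2) and 9.59 and 13.8 in brain (11.7 ± 2.97, SD, n = 2), again with no skin peak. Thymocytes and brain did not overlap at either site. On BUR 14, in the flank past Gimap3, values were 25.9 and 25.0 in thymocytes, 23.4 and 24.5 in brain, and 19.3 and 20.3 in skin, so that skin was the lowest without overlap. Thymocytes and brain exchanged order between BUR 9 on the one side and BUR 10 and BUR 11 on the other.

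**Figure D4:**
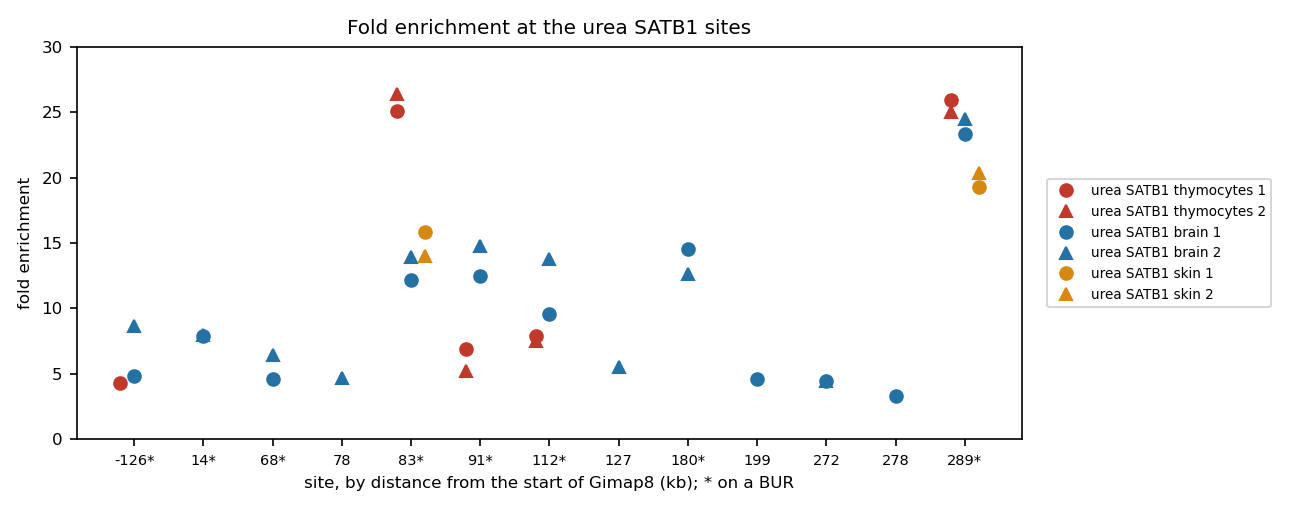
Fold enrichment (y axis) at each of the 13 urea SATB1 sites of the window (x axis, distance from the Gimap8 start in kb), with circles for library 1 and triangles for library 2 and an asterisk where the site lay on a BUR. On BUR 9, at 83 kb, the thymocyte points at 25.1 and 26.4 stand above brain and skin, and at the next sites, BUR 10 and BUR 11, the brain points stand above those of thymocytes.

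Of the 13 urea SATB1 sites in the window, all 13 had a brain peak, 5 a thymocyte peak and 2 a skin peak. No site was found in thymocytes or skin without brain. The paper reports such nesting over the whole genome: most BURs bound in skin were also bound in thymocytes, and nearly all those of thymocytes in brain. The nesting is thus not particular to this window. In brain 9 of the 13 sites were present in both libraries. Every thymocyte and skin peak of the window lay on a BUR, whereas 8 of 11 brain peaks did in each library (72.7%). Over the whole lists 75.8% and 77.6% of thymocyte peaks, 73.0% and 72.8% of brain peaks and 78.4% and 79.4% of skin peaks lay on a BUR. The 5 sites off a BUR were found in brain alone, and 1 of them was present in both brain libraries, with fold enrichments of 4.41 and 4.42.

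To compare the methods in thymocytes, standard SATB1 peaks were counted in the same window. Standard library 1 had 31 peaks and library 2 had 13, against 5 and 4 in the urea lists, a mean difference of -17.5 peaks (exact two-sided permutation test, p = 0.333, the smallest that 2 against 2 allows). With lists of equal size the counts were 5 and 6 against 2 and 2, a difference of -3.5. The share of peaks on a BUR was 0% in both standard lists and 100% in both urea lists (exact two-sided permutation test, p = 0.333). Over the whole lists 3.78% and 5.20% of standard peaks lay on a BUR. None of the 13 urea sites of any tissue overlapped any of the 30 standard sites of the window. Of these 30 sites, 11 had a standard peak in both libraries. In the whole lists 0.895% of peaks of urea library 1 overlapped a peak of standard library 1. With flanks of 500 kb the urea share on a BUR was 66.7% and 63.6%, so the 100% holds for the window and not for its wider surroundings.

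Standard SATB1 peaks stood at the starts of most Gimap genes. Peaks of both libraries covered an annotated start of Gimap8 (fold enrichment 7.24 and 6.54), Gimap9 (8.04 and 7.50), Gimap6 (6.54 and 4.42), the shared start region of Gimap7 and Gimap1-004 (13.7 and 9.49), Gimap1-001 (5.93 and 5.52) and Gimap5 (4.94 and 4.01). These peaks touched first exons and untranslated exon sequence, and at Gimap6 in both libraries and Gimap8 in library 2 coding sequence as well. The start of Gimap4 had no standard peak within 1 kb. Its nearest peak was 2.56 kb upstream in library 1, and the nearest site shared by both libraries was the Gimap9 start, 8.04 kb upstream. The start of Gimap3, the last gene of the cluster, had its nearest shared standard peak 5.55 kb upstream. In all, 6 of 8 members had a standard peak within 1 kb of a start in each library, where 53.6% and 41.4% of all protein-coding genes did. Among the 13 other protein-coding genes of the window, 5 and 2 had 1, Lrrc61 and Repin1 in both libraries. The strongest standard peak was at no start. It lay in the Gimap1 intron at chr6:48682647-48683357, 5696 bp upstream of Gimap1-001, with fold enrichments of 17.1 and 19.5 (18.3 ± 1.65, SD, n = 2), in the top 2.35% and 2.13% of its lists. The paper reports that standard ChIP-seq also gave peaks in thymocytes without Satb1, mainly in gene-rich open chromatin, and holds that most standard peaks depend on SATB1. No list of such knockout cells was used here, so the standard peaks of the window were not checked against them.

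Urea SATB1 peaks were seldom near a start. Gimap1 was the single member with a thymocyte urea peak within 1 kb of a start in both libraries (3.77% and 3.42% of all genes), and likewise the single member with a brain peak (8.51% and 7.75%), whereas no member had a skin peak there (1.15% and 1.13%). At Gimap1-001 the urea peak on BUR 10 and the standard peak over the start were 289 bp apart in library 1 of each method, and did not touch. BURs lay within 1 kb of a start of Gimap1 and Gimap6, 2 of 8 members, against 15.1% of all genes. From the nearest annotated start of each of the other members, the nearest thymocyte urea peak of both libraries was 83.0 kb away for Gimap8, 52.8 kb for Gimap9, 45.8 kb for Gimap4, 22.1 kb for Gimap6, 11.7 kb for Gimap7, 7.72 kb for Gimap5 and 6.39 kb for Gimap3. The thymocyte urea peaks thus stood in the part of the cluster from Gimap1 to Gimap3, and none lay between Gimap8 and Gimap6. In brain the distances were 13.7 kb for Gimap8, 14.7 kb for Gimap9, 23.1 kb for Gimap4, 6.56 kb for Gimap6 and 3.45 kb for Gimap7.

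**Figure D5:**
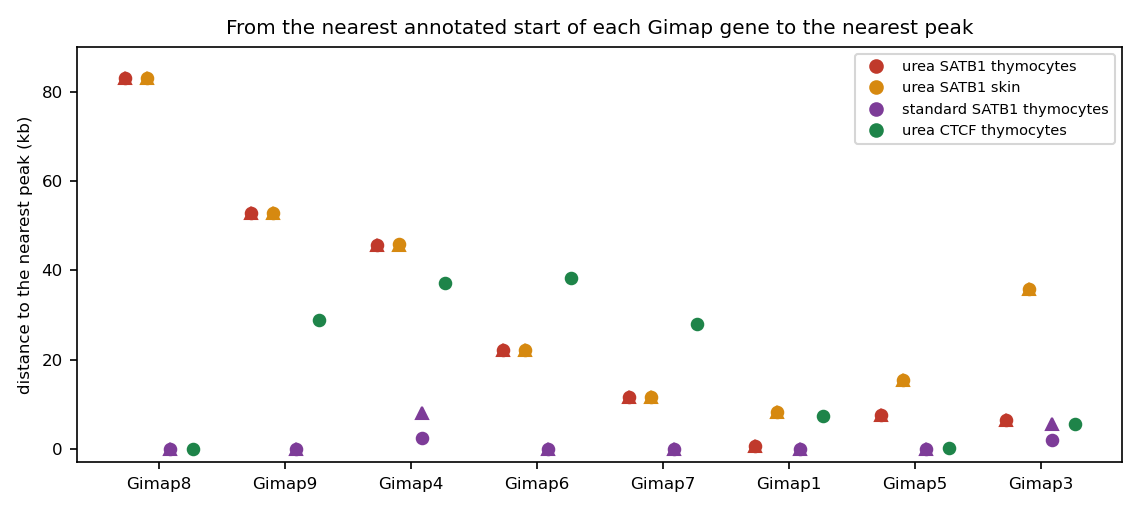
Distance in kb (y axis) from the nearest annotated start of each Gimap gene (x axis, in chromosome order) to the nearest peak in urea SATB1 of thymocytes and skin, standard SATB1 and thymocyte CTCF, with circles for library 1 and triangles for library 2. The standard SATB1 points lie at 0 for 6 of 8 genes, and the thymocyte urea points fall from about 83.0 kb at Gimap8 to under 1 kb at Gimap1.

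Within the gene body and 10 kb on either side, standard SATB1 peaks were found for 8 of 8 members in both libraries, where 70.4% and 59.4% of all protein-coding genes had a peak. Thymocyte urea peaks were found for 4 of 8 members in each library, Gimap1, Gimap7, Gimap5 and Gimap3, against 36.4% and 34.3% of all genes. Brain peaks were found for 6 of 8 members in each library, all but Gimap9 and Gimap4, against 53.5% and 51.6%, and skin peaks for 2 of 8, Gimap1 and Gimap7, against 16.5% and 16.0%. BURs were found for the same 6 members as the brain peaks, against 75.2% of all genes. Because the genes are close together, a single peak counts for several of them: the skin counts of both libraries rest on BUR 9. For BURs the members' share was at the background of all genes, and no set test was run on the other shares. Gimap4, which acts in T cell death, and Gimap9 had neither a BUR nor a urea SATB1 or CTCF peak in any list, and had 2 and 3 standard peaks in library 1 and 1 each in library 2. Gimap1 had most peaks of all, with 3 in each thymocyte urea list, 4 and 5 in brain, 1 in each skin list, and 7 and 5 in the standard lists, and its annotated body, 34.0 kb with Gimap1-004, was also the longest.

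CTCF was mapped by the urea method in thymocytes and in skin, with 1 list each, so no test was possible. The window held 11 CTCF peaks in thymocytes and 8 in skin, and 7 sites were shared. Of the thymocyte peaks 63.6% overlapped a skin peak, against 83.5% in the whole list. Of the skin peaks 87.5% overlapped a thymocyte peak, against 53.5% in the whole list. CTCF peaks were found in or within 10 kb of 4 of 8 members in both tissues, against 51.4% of all genes in thymocytes and 61.7% in skin. Shared peaks stood on both sides of the cluster, 1.18 kb upstream of Gimap8 in the skin list (fold enrichment 5.40 in thymocytes and 7.67 in skin) and 5.29 kb upstream of Gimap3 in the skin list (11.1 and 7.88), and a further shared peak lay 330 bp past the Gimap5 start in thymocytes (8.61 and 5.62). A peak over the Gimap8 start, with a fold enrichment of 7.80, was found in thymocytes and not in skin. Within 1 kb of a start, CTCF peaks were thus found for 2 of 8 members in thymocytes, Gimap8 and Gimap5, and for 1 in skin, Gimap5, where 14.1% and 17.3% of all genes had 1. The other shared sites were at Atp6v0e2 (9.06 and 4.72), between Rarres2 and Gm5111 (8.31 and 4.55), nearest to the start of Tmem176b (8.44 and 8.10) and in Gm7932 (7.46 and 4.49).

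The peaks that flank the cluster were searched for the CTCF core letters AGGGGGC or AGGTGGC or AGAGGGC or AGATGGC on both strands, within 150 bases of the summit. The matches nearest the summits are shown in capitals with 11 bases on each side, read along the strand of the match, for the site before Gimap8 at chr6:48595825-48595853 on the forward strand and for the site past Gimap3 at chr6:48722200-48722228 on the reverse strand. These are shown because they bound the span of the 8 genes.
CTCF before Gimap8: acacggccactAGAGGGCaggagacccca
CTCF past Gimap3: aggtaaccagcAGGGGGCagtgtttgcaa
The match lay 3 bases from the thymocyte summit at the first site and 16 bases at the second. Of the 11 thymocyte CTCF peaks of the window 6 held such a match and of the 8 skin peaks 4 did, against 72.4% and 58.8% of the peaks of the whole lists. Among the urea SATB1 peaks of the window, 5 and 4 in thymocytes, 11 and 11 in brain and 2 and 2 in skin, 0 held such a match. In the whole lists 7.71% and 7.93% did in thymocytes, 6.65% and 6.61% in brain and 9.66% and 9.65% in skin. Of the 14 window BURs 1 did, against 6.52% of all BURs. Of the standard peaks 7 of 31 and 3 of 13 did, against 37.3% and 33.0%. Numbers this small were not tested. The CTCF peaks at the starts of Gimap8 and Gimap5 held none of these letters in the stretch searched.

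Standard SATB1 and CTCF peaks coincided at part of the sites. In thymocytes 6 of 31 peaks of standard library 1 (19.4%) and 3 of 13 of library 2 (23.1%) overlapped a CTCF peak of the window, against 22.2% and 18.0% in the whole lists. The 3 sites with standard SATB1 in both libraries and thymocyte CTCF were the Gimap8 start, the Gimap5 start and the site past Gimap3. A single urea SATB1 site, found in brain library 1 with a fold enrichment of 4.60, overlapped a CTCF peak, which was of thymocytes and lay 4627 bp from a start of Tmem176a.

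The base composition of the peaks differed between the methods. Window peaks had a median A and T content of 65.0% in both thymocyte urea lists, of 64.8% and 65.4% in brain and of 58.9% and 59.3% in skin. Standard peaks had medians of 46.9% and 47.0%, and CTCF peaks of 51.2% in thymocytes and 50.4% in skin. The urea medians lay below those of their whole lists, which were 68.3% and 68.1% in thymocytes, 68.5% and 68.6% in brain and 66.5% and 66.6% in skin. The window itself held 53.5% A and T, against 58.2% over the genome. It was rich in genes and poor in BURs. Cut into 5070 stretches of the same length, the genome had a median of 36 BURs and of 3 protein-coding genes per stretch, against 14 and 21 at the Gimap genes, and 11.7% of the stretches had as few BURs or fewer. The thymocyte urea counts of 5 and 4 stood below the medians of 8 and 7, and the brain counts of 11 below the medians of 19 and 18. The skin counts equalled the median of 2. The standard counts of 31 and 13 stood above the medians of 5 and 2, with 93.7% and 85.7% of the stretches lower.

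By the counts of all 11 lists in a stretch of this length centred on a gene, the most similar loci among 22322 genes were those of Zfp568 (Euclidean distance of log2(count + 1) 0.754), Saal1 (0.781), Bmf (0.806), Olfr281 (0.865) and Atp5o (0.907), where the median gene was at 3.25. The stretch around Zfp568, the closest, held 17 BURs, 5 and 6 thymocyte urea peaks, and 12 and 10 brain peaks. It also held 2 and 2 skin peaks and 32 and 18 standard peaks. The stretch around Bmf, a gene of the Bcl2 family, held 14 BURs, 5 and 5 thymocyte urea peaks, and 13 and 10 brain peaks. It also held 2 and 2 skin peaks and 34 and 16 standard peaks. The likeness is one of counts in the stretch, and a shared function of these loci was not tested.

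Gene lists of related function were counted in the same way. Of 13 genes of the Bcl2 family and of IL-7 receptor signalling, which also act in lymphocyte survival, 13 had a standard SATB1 peak within 1 kb of a start in each library, against 53.6% and 41.4% of all genes. Thymocyte urea peaks in the body or within 10 kb were found for 5 in each library, Bcl2, Bcl2l11, Bad, Jak1 and Jak3, and skin peaks for 2, Bcl2l11 and Jak3, both close to the shares of all genes (36.4% and 34.3% in thymocytes, 16.5% and 16.0% in skin). Of 12 interferon-inducible GTPases, another family of GTP-binding proteins of immune cells, 10 and 6 had a standard peak within 1 kb of a start, against the same 53.6% and 41.4%. In the body or within 10 kb, 2 and 3 had a thymocyte urea peak, where 36.4% and 34.3% of all genes did, 5 in each library had a brain peak, where 53.5% and 51.6% did, and none had a skin peak, where 16.5% and 16.0% did.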

How the data were processed

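The peak lists used were the 11 narrowPeak lists of the wild-type libraries and of the BUR reference map, and the 27 samples without a list were not analysed here. Reads were checked by the authors with FastQC, mapped to mm9 with Bowtie2 2.3.1, with 3 mismatches allowed in the seed and unique matches kept, and passed to MACS2 2.2.7, sample by sample, with a q-value cutoff of 0.01, per the submitters' processing notes and methods. Whether an input was given to the caller is not given in the sources used here. The deposited lists hold a display score, which was not used, a fold enrichment ratio at the summit over the caller's local background, the −log10 p-value and the −log10 q-value of each peak as deposited by the authors, and the summit position. They hold no read counts, so no counting interval can be given. The study describes the aligned reads of the urea libraries as similar between cell types.

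Intervals were compared with Python 3.11.15 and numpy 2.4.6, and figures were drawn with matplotlib 3.10.9. A peak was counted where it shared at least 1 bp with the window, a BUR or a gene of GENCODE vM1 (mm9). Sites are peaks of the 10 ChIP lists merged where they shared a base. A start is any annotated transcript start, and the rule of 1 kb around starts was added after the data were seen. Tissues were compared over lists by an exact permutation test of the Jonckheere-Terpstra statistic, and the methods by an exact permutation test of the difference of means. The code was tested on simulated intervals. Sequences were read from the NCBIM37 genome. The members, lists, order of tissues and tests were chosen with earlier results of these data known. Named were all 8 members, the thymocyte urea peaks present in both libraries, skin urea peaks, the strongest standard and CTCF peaks, and the 5 loci with the smallest distance in counts. Alternatives were a stricter peak threshold (−log10 q of 5 or more), flanks of 0, 100 and 500 kb, lists of equal size, other overlap rules, other gene margins (0 and 50 kb), regions where all lists have a peak, leaving out each library, and a replicate block.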

Additional observations from a re-analysis of the deposited data

How the results depend on the processing

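Of 122 alternative values, 80 kept the direction and, where tested, the side of the threshold, and for the counts stayed within 1.5 times. Part of these outcomes was fixed beforehand, so the 80 does not measure how robust the results are. The exact permutation test of the methods can reach no p below 0.333, so its side of the 0.05 threshold could not change. For the tissues the replicate block can reach none below 0.0556 by exact permutation, so it could not keep their side. Places with a peak in every list numbered 57, of which 0 lay in the window, so dropping them removed no window peak. With lists of equal size, the brain mean minus the skin mean turned from 9 to -1 peaks and from 42.9 to -7.14 percentage points of BURs bound, and the difference per 10000 peaks was -0.922 (exact permutation test, p = 0.133 for each), since this setting removes most brain peaks. With flanks of 100 kb the difference per 10000 peaks was -0.244 (exact permutation test, p = 0.0667). Under the replicate block the differences stayed at 9 peaks, -0.844 per 10000 peaks and 42.9 points, with p = 0.0556 for each, the smallest that exact permutation within replicate numbers allows. The numbers do not pair the libraries: deviations of same-numbered lists over 5070 stretches correlated by -0.0296 to -0.00156. The block left the comparison of methods at -17.5 peaks and 100 points (exact permutation p = 0.5, the smallest possible). Leaving out each library in turn gave 9 to 9 peaks, -0.882 to -0.806 per 10000 peaks and 42.9 to 42.9 points. For the peaks per 10000 the exact permutation p was 0.0667 each time, the smallest possible there without ties. For peaks and BURs bound it was 0.0333 or 0.0667, the lower value arising only through tied lists. For the methods the difference was -26.5 to -8.5 peaks, the latter without standard library 1.

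The counts of members with a peak moved with the margin. In the gene body alone they were 2 for BURs, 1 for thymocytes, 1 for brain, 1 for skin and 2 for skin CTCF. Within 50 kb they were 6 for skin and 8 for CTCF in both tissues. With lists of equal size they were 3 for BURs, 2 for thymocytes, 0 for brain, 5 for standard SATB1 and 2 for skin CTCF. Within 1 kb of a start, a rule added after the data were seen, they were 2 for BURs, 1 for thymocytes, 1 for brain, 0 for skin, 2 for thymocyte CTCF and 1 for skin CTCF. CTCF peaks numbered 2 in thymocytes, 1 in skin and 1 shared without flanks, and 21, 18 and 15 with flanks of 500 kb.

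The comparison rests on 2 libraries a group at 1 locus and on whether a peak was called. The lists hold no read counts.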
